A study of Mus musculus with 10 samples.

Results

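The miR-15/16/195 and miR-103/miR-107 superfamily is a set of microRNAs whose mature strands begin with nearly the same letters. Its 10 mouse hairpins (mmu-mir-15a, mmu-mir-15b, mmu-mir-16-1, mmu-mir-16-2, mmu-mir-195a, mmu-mir-497a, mmu-mir-322, mmu-mir-103-1, mmu-mir-103-2 and mmu-mir-107) were taken by name, whatever their values, from the 1136 miRNA hairpins listed in sperm small RNA libraries. All 10 were found. Because the copies of mmu-mir-16 give the same mature miRNA, and likewise those of mmu-mir-103, each pair was summed, which left 8 features, and all 8 passed the filter on low counts.

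Small RNA was sequenced from the mature sperm of C57BL/6J males, with 5 libraries from mice on a control diet (CD-F0, 10% of kcal as fat) and 5 from mice on a high-fat diet (HFD-F0, 42% of kcal as fat). The diets began at 4 weeks of age and lasted 10 weeks, and the sperm came from the epididymal tail and the vas deferens. The labels give no difference between the groups other than the diet, and nothing states whether a library came from 1 mouse or from several, so p-values describe the spread between these libraries only. The depth was 29558751 to 32178088 clean reads per library.

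MicroRNAs are short RNAs that guide Argonaute proteins to messenger RNAs, and the seed, bases 2 to 8 of the mature strand, is the main part that pairs with the target. The miR-15/16 group is known for restraining cell division through cyclins and for lowering the survival factor BCL2, and miR-103/miR-107 is known for its part in insulin sensitivity and for targeting Dicer, the enzyme that makes microRNAs. Sperm carry microRNAs that were made in the germ cells or taken up from the epididymis.

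The mature sequences are shown because they divide the family. They are RefSeq sequences placed on GRCm38.p6, printed 5′ to 3′ with the seed in capitals, and every hairpin had an entry.
miR-15a-5p: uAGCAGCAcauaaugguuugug
miR-15b-5p: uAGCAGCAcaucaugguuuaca
miR-16-5p: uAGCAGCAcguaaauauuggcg
miR-195a-5p: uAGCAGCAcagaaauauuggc
miR-497a-5p: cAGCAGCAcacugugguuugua
miR-322-5p: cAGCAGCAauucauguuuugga
miR-103-3p: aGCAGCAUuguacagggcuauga
miR-107-3p: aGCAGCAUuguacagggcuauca

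The first 6 sequences, from 7 hairpins, share the seed AGCAGCA, and the other 2, from 3 hairpins, share GCAGCAU. The letters AGCAGCA also open miR-103 and miR-107, but at bases 1 to 7, so the seed is shifted by 1 base. Among the 1679 mature mouse miRNAs of the RefSeq table, 10 (0.596%) hold AGCAGCA at bases 2 to 8 and 2 (0.119%) hold it at bases 1 to 7. Within each group the seed is the same, and the differences lie in the other bases, base 1 of miR-497a and miR-322 included. Counted from the 5′ end, miR-195a differs from miR-16 by G10A and U11G and is 1 base shorter, miR-15b differs from miR-15a by A12C, G20A, U21C and G22A, and miR-107 differs from miR-103 by G22C alone.

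That likeness bears on the values. The authors allowed 1 mismatch in alignment, and miR-103 and miR-107 differ by 1 base. How reads were assigned between these 2 was not tested. mmu-mir-103 held 7.49 to 11.1 times the reads of mmu-mir-107 in every library. Values that were not whole numbers of reads occurred in all 10 libraries for mmu-mir-107 and mmu-mir-195a, in 9 for each mmu-mir-103 copy, in 8 for each mmu-mir-16 copy and in 4 for mmu-mir-15a and mmu-mir-15b. They occurred in none of the 10 for mmu-mir-497a and mmu-mir-322. With which hairpins each member shared reads was not analysed here, and the values of mmu-mir-107 are uncertain to that extent.

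The hairpins were placed by their RefSeq positions, and the genes around them were taken from the GENCODE M21 annotation of GRCm38. On the minus strand, mmu-mir-15a (chr14:61632027-61632110) lies in an intron of the non-coding gene Dleu2, and mmu-mir-16-1 (chr14:61631880-61631972), 54 bases away, overlaps an exon of at least 1 Dleu2 transcript. On the plus strand, mmu-mir-15b (chr3:69009772-69009835) and mmu-mir-16-2 (chr3:69009902-69009996) lie 66 bases apart in an intron of Smc4, which encodes a condensin subunit. The 3 hairpins of the other seed lie in introns of pantothenate kinase genes, which start coenzyme A synthesis, each on its host's strand: mmu-mir-103-1 in Pank3 (chr11:35782396-35782481, plus), mmu-mir-103-2 in Pank2 (chr2:131288052-131288137, plus) and mmu-mir-107 in Pank1 (chr19:34820687-34820773, minus). No gene other than a miRNA gene overlaps mmu-mir-497a (chr11:70234717-70234800) and mmu-mir-195a (chr11:70235042-70235135), which lie 241 bases apart on the plus strand, nor mmu-mir-322 (chrX:53054255-53054349, minus).

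Before the levels, the libraries and their labelled cell type were checked. The share of annotated reads assigned to miRNA was 18.5%, 17.97%, 19.6%, 16.5% and 18.1% in the CD-F0 libraries and 24.95%, 20.2%, 19.0%, 19.3% and 15.6% in the HFD-F0 libraries, in the order of their replicate numbers. HFD-F0 replicate 1 had the highest share and HFD-F0 replicate 5 the lowest. The share of clean reads that matched the genome was 64.9%, 74.8%, 75.2%, 69.2% and 68.6% in CD-F0 (70.5% ± 4.41) and 73.3% to 74.7% in HFD-F0 (74.0% ± 0.574, SD, n = 5 each), so that 3 CD-F0 libraries lay below every HFD-F0 library. Levels relative to all clean reads, given as RPM (reads divided by the clean reads of the library and multiplied by 1000000), move with the miRNA share, and the part of both shares in the differences below was not tested.

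All 11 miRNAs on a list for the male germ line and sperm were present in every library. Their summed level was 14961 ± 1257 RPM in CD-F0 and 13654 ± 3456 RPM in HFD-F0 (mean ± SD, n = 5 each), and 7 of the 11 had a higher mean in HFD-F0. The most abundant, mmu-mir-449a with 44.4% of the sum, was at 7107 ± 1589 RPM in CD-F0 and 5606 ± 2161 RPM in HFD-F0, against the direction of those 7. MicroRNAs of other cells were present too. The 6 epithelial markers summed to 5519 ± 1194 RPM in CD-F0 and 6890 ± 1574 RPM in HFD-F0, led by mmu-mir-429, and the mean of each of the 6 was higher in HFD-F0. The 6 muscle markers summed to 26111 ± 3613 and 29202 ± 8232 RPM, and 94.9% of that was mmu-mir-143, the most abundant hairpin of all. The mean was higher in HFD-F0 for 4 of the 6, among them mmu-mir-145a at 578 ± 199 and 1302 ± 780 RPM, which passed both edgeR thresholds (log2 fold change 1.09, adjusted p = 0.288). It was slightly lower for mmu-mir-1a-1 (151 ± 79.0 and 149 ± 92.8 RPM) and mmu-mir-1a-2. The 7 blood and immune markers, in which the miR-142 hairpin is listed as mmu-mir-142a, summed to 4518 ± 802 and 4800 ± 1140 RPM, led by mmu-mir-146a, and 6 had a higher mean in HFD-F0. Of these mmu-mir-223 was at 362 ± 13.7 and 528 ± 57.8 RPM (edgeR log2 fold change 0.45, adjusted p = 0.221) and mmu-mir-142a at 115 ± 44.0 and 139 ± 51.9 RPM. The exception was mmu-mir-451a, at 1122 ± 439 RPM in CD-F0 and 964 ± 542 RPM in HFD-F0. None of these markers is a family member, and their part in the family's levels was not tested. In such bulk samples, fewer cells of a type and less RNA per cell cannot be told apart.

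The family was a small portion of sperm miRNA. Its 10 hairpins took 2.27% to 2.53% of the miRNA reads in the CD-F0 libraries and 2.35% to 3.08% in the HFD-F0 libraries. The summed level was 3887, 4276, 4143, 3879 and 4191 RPM in CD-F0 and 5612, 4472, 5575, 4298 and 4099 RPM in HFD-F0. HFD-F0 replicates 1 and 3 stood above the rest, and HFD-F0 replicate 5 lay within the CD-F0 range. The mean was 4075 ± 182 RPM in CD-F0 and 4811 ± 726 RPM in HFD-F0, a ratio of 1.18, and relative to miRNA reads the ratio was 1.08.

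Almost all of that came from the seed AGCAGCA, and most of it from mmu-mir-16. Its copies together made up 64.8% to 73.4% of the family's reads, mmu-mir-15b 14.8% to 24.8% and mmu-mir-15a 5.51% to 6.83%. None of the remaining 5 features exceeded 1.78% in any library. The copies of mmu-mir-16 ranked 34 and 35 among the 1136 hairpins by mean RPM, mmu-mir-15b 56, mmu-mir-15a 92 and mmu-mir-322 147. Further down came mmu-mir-497a at 173, mmu-mir-195a at 181, the mmu-mir-103 copies at 204 and 205, and mmu-mir-107 at 318. Levels of different miRNAs also carry differences in ligation and amplification.

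In mean RPM over the 10 libraries the order was mmu-mir-16 (3110), mmu-mir-15b (843), mmu-mir-15a (282), mmu-mir-322 (62.3), mmu-mir-103 (58.1), mmu-mir-497a (42.1), mmu-mir-195a (38.7) and mmu-mir-107 (6.71). The first 3 steps and the last one held in 10 of 10 libraries with no overlap of ranges. The middle did not separate. mmu-mir-322 was above mmu-mir-103 in 7 of 10 libraries, mmu-mir-103 above mmu-mir-497a in 9, and mmu-mir-497a above mmu-mir-195a in 7, with overlapping ranges each time.

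**Figure D1:**
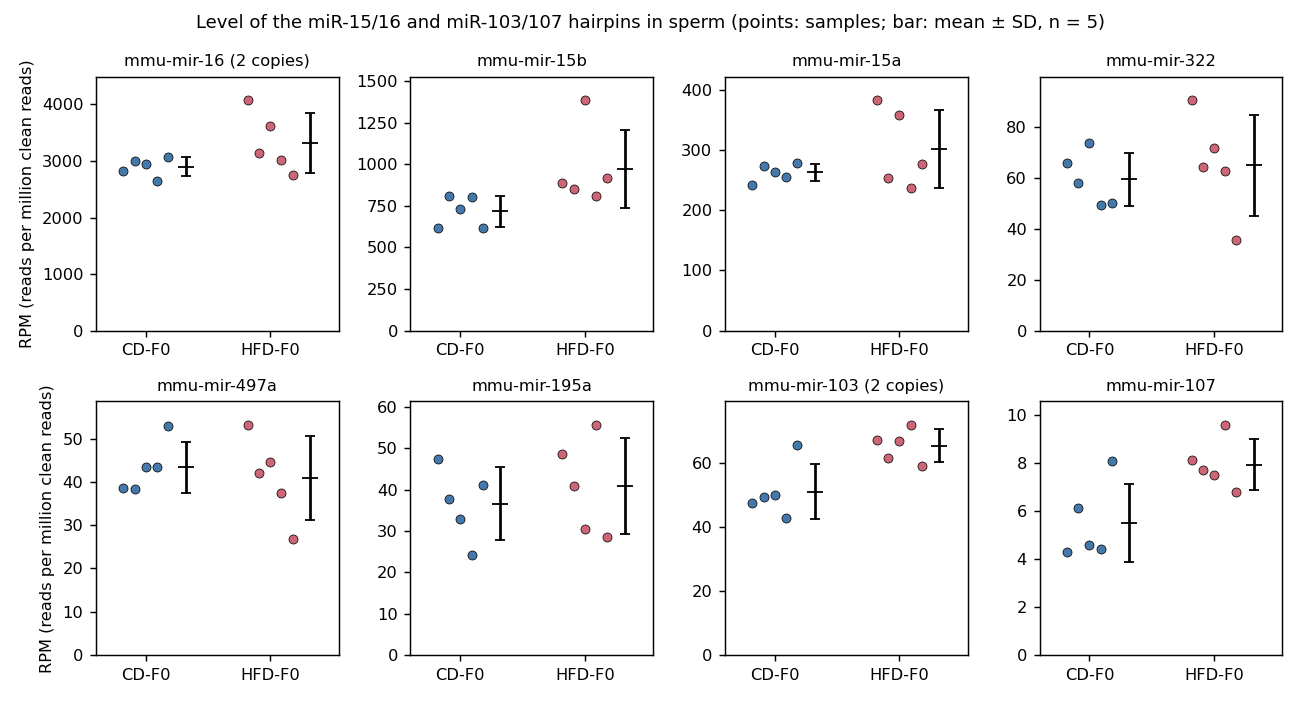
Level of each of the 8 features in RPM (vertical axes, linear from 0, a separate scale for each panel) in the 5 CD-F0 and 5 HFD-F0 libraries, with points for libraries in the order of their replicate numbers and bars for mean ± SD. Only for mmu-mir-15b do the groups stand apart, with HFD-F0 from 812 and CD-F0 up to 808 RPM, and its HFD-F0 replicate 3 lies far above the others at 1385 RPM.

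The comparison of HFD-F0 with CD-F0 asks whether the father's diet goes with a different level of these miRNAs in his sperm. No member changed by the study's thresholds. mmu-mir-15b, mmu-mir-103 and mmu-mir-107 had higher mean levels in the HFD-F0 libraries, by 1.36, 1.28 and 1.44 times in RPM, but none of the 3 differences passed adjustment for the number of features tested. For mmu-mir-16, which supplies most of the reads, the ratio was 1.14.

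Across all features, edgeR's quasi-likelihood test with TMM normalization called 30 of 812 (3.69%) at the study's thresholds, 0.05 on the unadjusted test and 1 on the absolute log2 fold change, and 15 of the 527 miRNA features (2.85%). Of the 8 family features 0 were called, 0 passed the unadjusted threshold without the fold threshold (10.2% of all features did), and 0 passed 0.05 after Benjamini-Hochberg adjustment (0.123% of all features did). DESeq2 also gave 0 of the 8 by each of the 3 rules, with 28, 97 and 13 of the 812 features past them. The unadjusted threshold alone was passed by mmu-mir-15b and mmu-mir-107 with clean reads as library size (11.2% of all features) and in the fit on miRNA features only (12.3%), by mmu-mir-107 without CD-F0 replicate 5 (13.1%) and by mmu-mir-15b without HFD-F0 replicate 1 (14.6%). The smallest edgeR adjusted p in the family was 0.468. Of the 8 log2 fold changes 7 were above 0 (5 to 7 when single libraries were left out), against 45.2% of the miRNA features, and their median was 0.09 against -0.06 for the miRNA features and -0.003 for all features. That median was 0.03 without HFD-F0 replicate 1, 0.06 without CD-F0 replicate 2, 0.17 without CD-F0 replicate 1, 0.15 without HFD-F0 replicate 5 and 0.20 with clean reads as library size, where the median of all features was 0.09. In the edgeR fit with TMM on all features, every 95% interval lay between -0.59 and 0.92, inside the threshold of 1 in either direction. Under the alternatives 4 of 146 intervals passed 1, all of mmu-mir-107, with upper limits from 1.004 to 1.05.

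**Figure D2:**
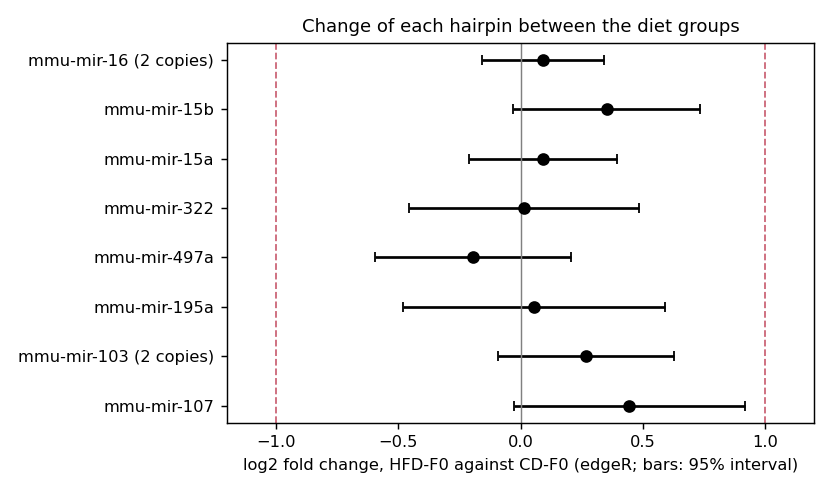
Log2 fold change of HFD-F0 against CD-F0 (horizontal axis) for the 8 features, by edgeR with TMM, with 95% intervals as bars, a grey line at 0 and dashed lines at the threshold of 1 in either direction. Every interval includes 0 and stays inside the dashed lines, and mmu-mir-497a alone has an estimate below 0.

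An exact two-sided permutation test over all assignments of the libraries to groups of 5, on RPM, gave p ≤ 0.05 for 3 of the 8 features, against 84 of all 812 (10.3%). All HFD-F0 libraries lay above all CD-F0 libraries for 1 of the 8, mmu-mir-15b, against 30 of 812 (3.69%). With 5 libraries against 5, the smallest p this test can give is 0.00794.

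mmu-mir-15b, which shares the Smc4 locus with mmu-mir-16-2, stood at 618, 808, 730.2, 805 and 619 RPM in the CD-F0 libraries and at 885, 854, 1385, 812 and 917 RPM in the HFD-F0 libraries. All HFD-F0 libraries lay above all CD-F0 libraries, though 812 and 808 RPM almost met, and HFD-F0 replicate 3 stood far above the other HFD-F0 libraries. The means were 716 ± 94.5 and 971 ± 235 RPM, with an exact permutation p of 0.00794 and a Benjamini-Hochberg adjusted value of 0.201 over all 812 features. Without HFD-F0 replicate 3 the ratio fell from 1.36 to 1.21 and the exact p was 0.0317. Over the 10 analyses that left out 1 library, the unadjusted exact permutation p in RPM ran from 0.00794 to 0.0397. The edgeR log2 fold change was 0.35 ± 0.18 (SE), with a 95% interval of -0.03 to 0.73 and an adjusted p of 0.482, and without HFD-F0 replicate 3 it was 0.19.

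The separation of mmu-mir-15b depended on the scale. In CPM after TMM the CD-F0 libraries ran from 680 to 912 and the HFD-F0 libraries from 776 to 1435, and 3 of 5 HFD-F0 libraries were above the highest CD-F0 library (exact permutation p = 0.0556). Relative to miRNA reads the ranges were 3600 to 5234 and 3759 to 7643, and 2 of 5 were above (exact permutation p = 0.230). HFD-F0 replicate 1, the library with the largest miRNA share, was the middle HFD-F0 library for mmu-mir-15b in RPM and the lowest on both other scales. Without it the edgeR log2 fold change was 0.40, which passed the unadjusted threshold (adjusted p = 0.328).

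mmu-mir-15a, its close relative at the Dleu2 locus, was at 242, 274, 264, 256 and 278 RPM in CD-F0 and at 383, 253, 358, 237 and 277 RPM in HFD-F0. The CD-F0 libraries were close together, HFD-F0 replicates 1 and 3 were high, and the other 3 HFD-F0 libraries fell in or below the CD-F0 range. The edgeR log2 fold change was 0.09 ± 0.14 (SE), with an adjusted p of 0.907. It was 0.02 without HFD-F0 replicate 1 and likewise without HFD-F0 replicate 3, and 0.16 without HFD-F0 replicate 4. The ratio of mmu-mir-15b to mmu-mir-15a was 2.73 ± 0.358 in CD-F0 and 3.26 ± 0.574 in HFD-F0 (SD, n = 5 each), with overlapping ranges.

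mmu-mir-16, summed over its loci, was at 2824, 3005, 2944, 2654 and 3076 RPM in CD-F0 and at 4076, 3149, 3611, 3012 and 2747 RPM in HFD-F0. The 3 HFD-F0 libraries above the CD-F0 range were replicates 1, 2 and 3, and replicate 5 was below all CD-F0 libraries except replicate 4. The exact permutation p was 0.135, and it was at or under 0.05 in 1 of the 10 analyses that left out 1 library, ranging from 0.0159 without HFD-F0 replicate 5 to 0.286 without CD-F0 replicate 4. Without HFD-F0 replicate 1 the ratio was 1.08 and the edgeR log2 fold change 0.03. The edgeR log2 fold change was 0.09 ± 0.11 (SE), with a 95% interval of -0.16 to 0.34 and an adjusted p of 0.900. Its counts were the largest of the family, up to 130449 reads in a library, so that counting error was as little as 0.542% of the value and the spread between libraries was the limit.

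The copies of 1 mature miRNA had nearly equal values, and reads that fit both are divided between them. mmu-mir-16-1 exceeded mmu-mir-16-2 in 10 of 10 libraries, by 944 to 1834 reads, which was 0.887% to 1.91% of their sum. This excess was 37.0 ± 5.66 RPM in CD-F0 and 45.6 ± 8.81 RPM in HFD-F0. For mmu-mir-103 the first copy was the higher one in 1 of 10 libraries, and the difference ran from -16.5 to 7.5 reads.

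Over the 10 libraries the coefficient of variation in RPM was 24.4% for mmu-mir-322, 18.3% for mmu-mir-497a and 25.7% for mmu-mir-195a, against 13.8% for mmu-mir-16, 17.4% for mmu-mir-15a and 25.6% for mmu-mir-15b. mmu-mir-322, the mouse counterpart of human miR-424, lies on the X chromosome and is known from muscle differentiation. It was at 66.0, 58.0, 73.7, 49.5 and 50.3 RPM in CD-F0 and at 90.7, 64.3, 71.8, 62.8 and 35.7 RPM in HFD-F0. HFD-F0 held both the highest and the lowest library, and the edgeR log2 fold change was 0.01 ± 0.22 (SE, adjusted p = 0.995). Its sign was negative, down to -0.10, without any single one of CD-F0 replicates 2, 4 and 5 and HFD-F0 replicates 1, 2 and 3. The largest move was upward, to 0.16 without HFD-F0 replicate 5, and the value was 0.10 without CD-F0 replicate 1.

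mmu-mir-497a and mmu-mir-195a form a cluster known for arresting the cell cycle in heart and skeletal muscle. mmu-mir-497a was at 38.5, 38.4, 43.6, 43.5 and 53.0 RPM in CD-F0 and at 53.3, 42.1, 44.6, 37.6 and 26.9 RPM in HFD-F0. It was the one member with an estimate below 0, at a log2 fold change of -0.19 ± 0.18 (SE) and an edgeR adjusted p of 0.795. Without HFD-F0 replicate 5 the estimate was -0.09 and the ratio in RPM 1.02, and without CD-F0 replicate 5 the estimate was -0.12. mmu-mir-195a was at 47.3, 37.6, 32.8, 24.1 and 41.1 RPM in CD-F0 and at 48.6, 40.8, 30.5, 55.7 and 28.6 RPM in HFD-F0, with a log2 fold change of 0.05 ± 0.25 (SE) and an edgeR adjusted p of 0.980. The groups overlapped for both. The estimate of mmu-mir-195a was below 0, down to -0.11, without CD-F0 replicate 3 or 4 or HFD-F0 replicate 4. In the other direction, the estimate was 0.22 without CD-F0 replicate 1, 0.15 without HFD-F0 replicate 5 and 0.14 without HFD-F0 replicate 3. Although they lie on 1 cluster, the ratio of mmu-mir-497a to mmu-mir-195a ran from 0.674 to 1.80 over the libraries.

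In the miR-103/miR-107 group, mmu-mir-103 was at 47.4, 49.2, 49.8, 42.8 and 65.4 RPM in CD-F0 and at 67.2, 61.3, 66.9, 71.9 and 58.9 RPM in HFD-F0. All HFD-F0 libraries were above 4 of the 5 CD-F0 libraries, and CD-F0 replicate 5 lay within the HFD-F0 range. The means were 50.9 ± 8.55 and 65.2 ± 5.16 RPM (exact permutation p = 0.0238, adjusted over all features 0.328). Over the 10 analyses that left out 1 library, the unadjusted exact permutation p in RPM ran from 0.00794 to 0.0397. The edgeR log2 fold change was 0.27 ± 0.17 (SE), with a 95% interval of -0.09 to 0.63 and an adjusted p of 0.604.

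mmu-mir-107 was far lower, at 4.28, 6.13, 4.58, 4.41 and 8.07 RPM in CD-F0 and at 8.11, 7.70, 7.48, 9.60 and 6.77 RPM in HFD-F0. Again CD-F0 replicate 5 was the high CD-F0 library, and the other 4 were below all HFD-F0 libraries. The means were 5.49 ± 1.62 and 7.93 ± 1.05 RPM (exact permutation p = 0.0317, adjusted over all features 0.385). The edgeR log2 fold change was 0.44 ± 0.22 (SE), the largest of the family, with a 95% interval of -0.03 to 0.92 and an adjusted p of 0.468. Without CD-F0 replicate 5 it was 0.62, with an edgeR adjusted p of 0.207, and a 95% interval of 0.19 to 1.05. The exact permutation p was at or under 0.05 in 4 of the 10 analyses that left out 1 library and above it in the others. Its counts were the lowest of the family, from 130.3 reads, where counting error alone reached 17.2% of the value (Wilson 95% interval).

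As some reads may be shared between mmu-mir-103 and mmu-mir-107, they were also summed. The sum was 56.4 ± 10.0 RPM in CD-F0 and 73.2 ± 6.11 RPM in HFD-F0, a ratio of 1.30, and relative to miRNA reads the ratio was 1.196. The ratio of mmu-mir-103 to mmu-mir-107 was 9.55 ± 1.46 in CD-F0 and 8.28 ± 0.576 in HFD-F0 (SD, n = 5 each). Relative to miRNA reads the exact permutation p was 0.103 for mmu-mir-103 and 0.0952 for mmu-mir-107, and the groups overlapped on all 3 scales.

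**Figure D3:**
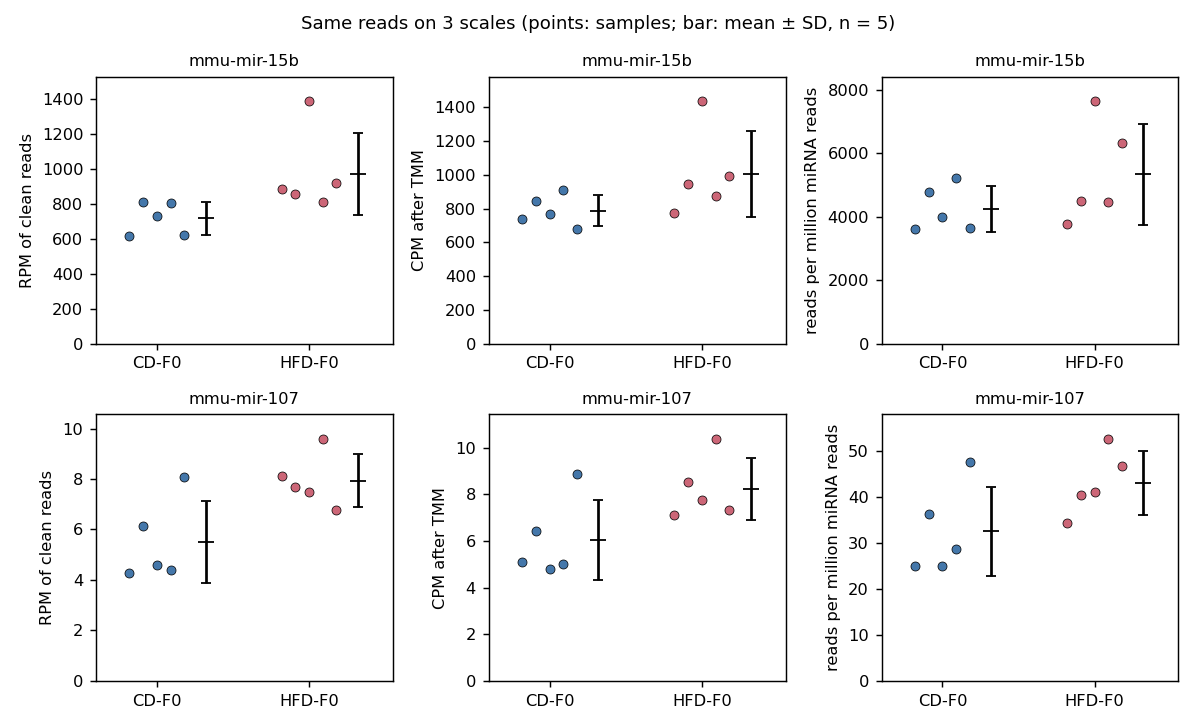
mmu-mir-15b (upper row) and mmu-mir-107 (lower row) from the same reads on 3 scales, RPM of clean reads, CPM after TMM and reads scaled to total miRNA reads (vertical axes, linear from 0), with points for libraries and bars for mean ± SD. The 5 HFD-F0 points of mmu-mir-15b clear the CD-F0 points in RPM and overlap with them on the other scales, and for mmu-mir-107 CD-F0 replicate 5 lies among the HFD-F0 points throughout.

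The sample profiles of the members were then compared by the mean absolute difference of log2 CPM, centred per feature, over the 10 libraries. This is a description, in which features share libraries, depth and in part reads. The profiles were not scaled to equal spread, so features that vary little score as alike even where they do not vary together. Of the 28 pairs, mmu-mir-15a and mmu-mir-16 were the most alike (0.09), followed by mmu-mir-103 and mmu-mir-107 (0.15). mmu-mir-15b, which shares a locus with a copy of mmu-mir-16, was 0.22 from mmu-mir-16 and 0.21 from mmu-mir-15a. The clustered mmu-mir-195a and mmu-mir-497a came 21st, at 0.32, and mmu-mir-15b and mmu-mir-195a were the least alike (0.45).

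**Figure D4:**
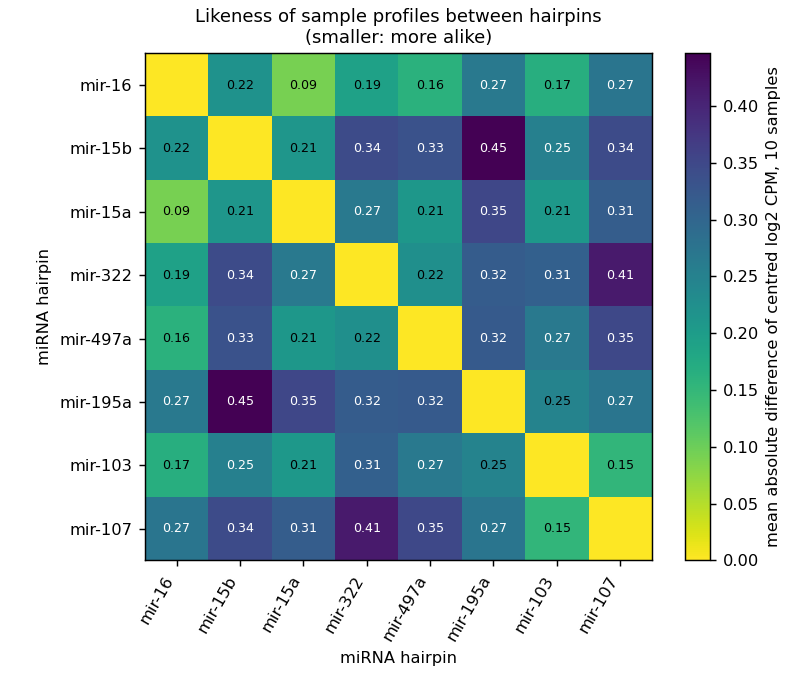
Mean absolute difference of centred log2 CPM over the 10 libraries for each pair of the 8 features, with the value printed in each cell and smaller values, in lighter colour, for more similar profiles. The lowest values are those of mmu-mir-15a with mmu-mir-16 (0.09) and mmu-mir-103 with mmu-mir-107 (0.15), and the highest is that of mmu-mir-15b with mmu-mir-195a (0.45).

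Outside the family, among 286 miRNA features with a mean of at least 10 CPM, those closest to mmu-mir-16 were mmu-mir-191 (0.07), mmu-mir-3970 (0.10) and mmu-let-7i (0.10), where the median over the 286 was 0.26. Closest to mmu-mir-103 were mmu-mir-30e (0.13), mmu-mir-23b (0.14) and mmu-mir-672 (0.15), where the median was 0.32.

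The remaining relatives and cluster neighbours were low. Of 11 such hairpins, 4 with the seed AGCAGCA and 7 that lie beside or opposite a member, all were listed and 7 passed the filter. Among these 7 the log2 fold change was above 0 for 3 and below 0 for 4, and 0 passed both thresholds. The unadjusted threshold alone, passed by 10.2% of all features, was passed by 2, mmu-mir-450a-1 and mmu-mir-450a-2 from the X-linked cluster of mmu-mir-322, each with a log2 fold change of 0.51 and an edgeR adjusted p of 0.429. They are near-identical copies and count as 1 signal. mmu-mir-450a-1 was at 3.14 ± 0.512 RPM in CD-F0 and 4.78 ± 1.21 RPM in HFD-F0. The relative mmu-mir-195b was at 2.69 ± 0.781 and 2.87 ± 0.327 RPM, and mmu-mir-503, next to mmu-mir-322, at 2.78 ± 0.946 and 3.08 ± 1.24 RPM.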

How the data were processed

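The authors aligned the clean reads with Bowtie, allowing 1 mismatch, within the small RNA annotation pipeline SPORTS (build mm10 per the labels, versions not given in the sources used here). They deposited the reads of each sub-class, which are estimated counts because reads that fit several sub-classes are divided. Whether reads with the same molecular identifier were collapsed is not stated, so counting intervals cover counting error only.

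Genome-matched and unmatched reads were added, and RPM was computed from the clean reads. Estimated counts were rounded and 812 features were kept by filterByExpr in edgeR 4.0.16 (R 4.3.3, limma 3.58.1), with TMM, the quasi-likelihood test, the study's thresholds (0.05 unadjusted, absolute log2 fold change of 1) and Benjamini-Hochberg adjustment over all features. DESeq2 1.42.0 was an alternative. Exact permutation tests used every split of the libraries into 5 and 5, or every split of the remaining libraries when a library was left out. The edgeR fit was tested on simulated counts, and the permutation test on made-up values with a known answer.

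All 10 members were named, whatever their values. Members, relatives (cluster neighbours and hairpins with the same seed, of which at most 4 were named) and marker lists were chosen with earlier results of these data known. Named beside them were the 3 closest profiles for mmu-mir-16 and mmu-mir-103. Replicate numbers came from the sample titles, which state no pairing, and were used to pair the samples only in the alternative with a replicate block. The planned share of reads unmatched to the genome gave no test, since the members had 0 such reads.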

Additional observations from a re-analysis of the deposited data

Results flagged for a closer look

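In 1 of 16 groups of 5 libraries, a library stood apart by Dixon's criterion (gap to the nearest library over the range of the group, 95% critical value 0.71). mmu-mir-15b was at 1385 RPM in HFD-F0 replicate 3, and the gap was 0.816 of the range. Chance alone gives about 1 such library in 20 groups.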

How the results depend on the processing

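Under the 18 alternatives to the edgeR fit, 0 family features passed both thresholds each time, and the smallest adjusted p in the family ran from 0.207 to 0.701. The call count over all features, 30 by edgeR, was 93 without a filter, 19 with at least 10 counts in every sample, 15 with miRNA features only, 25 with the replicate block and 21 to 50 when single libraries were left out (50 without CD-F0 replicate 5). Correlations of same-numbered deviations ran from -0.19 to 0.34, and 4 of 10 libraries correlated best with their own number. Whether same-numbered libraries shared a batch was not tested. With clean reads as library size the median of all features moved from -0.003 to 0.09, and mmu-mir-15b and mmu-mir-107 passed the unadjusted threshold in edgeR (adjusted p 0.377 and 0.435), as 91 of 812 features did. They also passed it, as 65 of 528 features did, in the fit on miRNA features only (log2 fold change 0.40 and 0.50, adjusted p 0.372 for both). Of 146 log2 fold changes under alternatives, 10 reversed, all of them of mmu-mir-322 or mmu-mir-195a. That of mmu-mir-322 was -0.0099 with the replicate block and -0.10 to 0.16 over all alternatives, and that of mmu-mir-195a -0.11 to 0.22. Relative to miRNA reads, the HFD-F0 over CD-F0 ratio was 1.25 for mmu-mir-15b, 1.18 for mmu-mir-103 and 1.33 for mmu-mir-107, all with an exact permutation p over 0.05, and 0.977 for mmu-mir-322, which reversed. Leaving out single libraries from the ratios was added after seeing the data, and gave 0.985 to 1.22 for mmu-mir-322 and 0.871 to 1.02 for mmu-mir-497a. The causes were not tested. Depth limits mmu-mir-107 most.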
